A study of Mus musculus with 24 samples.

Results

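The undifferentiated cells at day 0 were compared between male mouse embryonic stem cell (mESC) lines heterozygous for a deletion of Smchd1 (het) and wild-type lines (wt). The members were 6 of the 24 libraries of the series, chosen by their labels: 3 het and 3 wt libraries of cells in DMEM with LIF, with all genes of the count table. All lines came from a Castaneus mother that was Smchd1 +/+ and a C57BL/6 father that was Smchd1 del/fl and carried the MMTV-Cre transgene. The wt lines were Smchd1 fl/+ and so kept a working paternal allele flanked by loxP sites, while the het lines were Smchd1 del/+ and carried the deleted paternal allele. Each line was derived from its own blastocyst in medium with 2 kinase inhibitors (2i) and LIF, and was then moved stepwise into serum medium with LIF on gelatin. Day 0 was the sample taken before the change to N2B27 medium with FGF. The lines are the replicates, and line numbers do not link het to wt lines. The comparison asked whether the deletion in the embryo's own paternal allele altered expression when the oocyte had supplied normal SMCHD1.

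SMCHD1 is a noncanonical member of the structural maintenance of chromosomes (SMC) family that keeps genes silent on the inactive X chromosome, in imprinted clusters and in clustered gene families such as the protocadherins and Hox genes. Mouse ES cells resemble the epiblast of the blastocyst and express Pou5f1, Sox2 and Nanog. Cultures in serum and LIF are mixed. Some cells take on features of primitive endoderm, the sister lineage of the epiblast that makes the parietal and visceral endoderm of the yolk sac, and a few pass through a state that resembles the cleavage-stage embryo.

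The libraries held 14.4 to 18.8 M (mega) counts each. Of the 6, wt line 1 stood apart. It had a count for 16821 genes against 18498 to 19097 in the other 5, and its log2 counts per M (CPM) correlated with theirs at r = 0.954 to 0.959 across genes, against 0.980 to 0.987 among the others. The leading principal component, with 48.9% of the variance, placed wt line 1 at -75.0 and the other libraries between 9.03 and 19.5. The genes of chromosome 8 in wt line 1 had a median log2 difference of 0.221 from the mean of the other 5 libraries, and this median was 0.215 at day 2, 0.232 at day 2.5 and 0.197 at day 3 in the same line. In the other libraries of the 4 days this median lay between -0.0974 and 0.0605. Base composition also differed between libraries. From the lowest to the highest quintile of exonic GC content the median log2 difference went from negative to positive in wt line 1 and wt line 3. It went from positive to negative in the 3 het lines and also in wt line 2, from 0.0299 to -0.0582. Genes in the lowest quintile had a median log2 fold change of 0.14 (het over wt) and those in the highest quintile -0.18, and without wt line 1 these were 0.08 and -0.09. Results below are given with all 6 libraries, and values without wt line 1 or with the trends on GC content and gene length removed are set beside many of them. The part of GC content in the results was not tested.

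**Figure D1:**
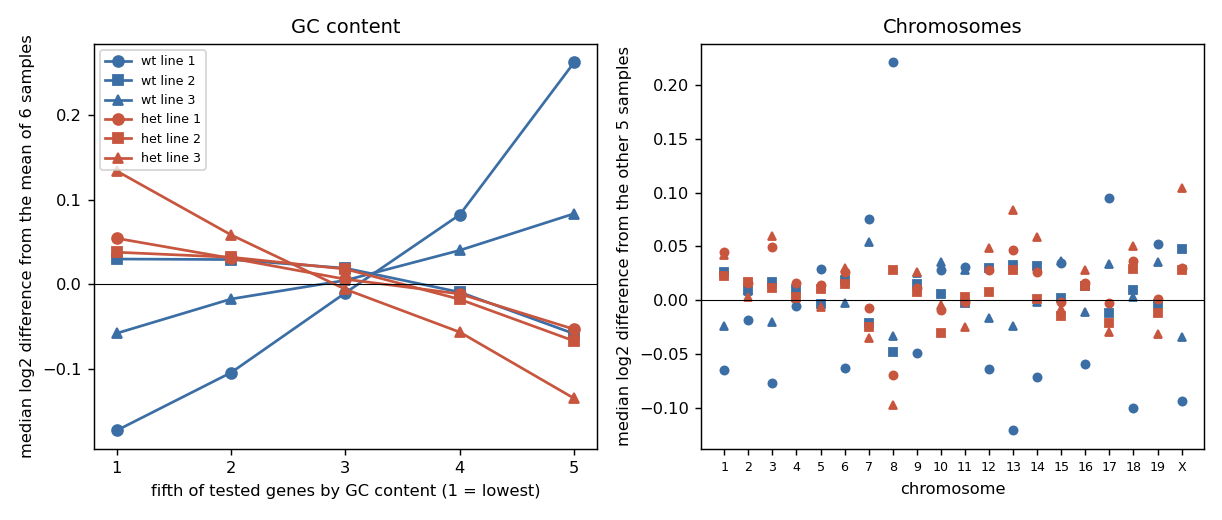
The left panel shows, for each of the 6 day 0 libraries, the median log2 difference from the mean of all 6 for tested genes in quintiles of exonic GC content, and the right panel the median log2 difference from the mean of the other 5 for the genes of each chromosome. Library wt line 1 runs from -0.172 in the lowest GC quintile to 0.262 in the highest, wt line 2 slopes the way the het lines do, and wt line 1 is the library with the raised chromosome 8 median of 0.221.

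The ES cell identity of the libraries was checked with markers. Pou5f1, a core pluripotency factor, was at 1394, 1125 and 1292 CPM in the wt lines and 1091, 1111 and 1092 in the het lines, all below the lowest wt line. Nanog, another such factor, was at 326, 373 and 316 CPM in wt and 329, 412 and 341 in het, with overlap. Sox2, Zfp42 and Esrrb overlapped between genotypes too, with log2 fold changes of -0.05, -0.04 and 0.03. Of 5 fibroblast markers, Thy1 was at 6.69 to 8.12 CPM and Col1a1 and Col1a2 were at or below 2.89 CPM in every library. Col3a1 had 24, 2 and 3 counts in wt and 8, 3 and 0 in het, and Postn had at most 5 counts in any library. The Y-linked genes were expressed in all 6 libraries, as the male label requires.

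Smchd1 (ENSMUSG00000024054, minus strand of chromosome 17, 71344489 to 71475343, GRCm38) was measured first as a check of the labels. It was at 129, 140 and 142 CPM in the wt lines and at 96.1, 84.8 and 88.8 CPM in the het lines. All 3 het lines lay below all 3 wt lines, and the het mean was 65.7% of the wt mean. The log2 fold change was -0.60 ± 0.08 (SE) with an adjusted p of 0.0634 in the edgeR quasi-likelihood test, which was the smallest of all genes. An exact permutation test of log2 CPM gave a difference of -0.61 with a two-sided p of 0.1, the smallest that 3 lines against 3 can give. Without wt line 1, Smchd1 was lower by -0.65 with an adjusted p of 0.000466. The counts cover the whole gene and do not tell the alleles apart.

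Across the genome, 0 of 15108 genes tested (0%) passed an adjusted p of 0.05. An unadjusted p under 0.05 was found for 1712 genes (11.3%), of which 777 were higher in het (5.14%) and 935 lower (6.19%). The het and wt lines did not overlap for 2500 genes (16.5%), with het above for 1302 (8.62%) and below for 1198 (7.93%). The median log2 fold change of all genes tested was -0.00178. No gene below is therefore called different with all 6 libraries. Unadjusted counts of the gene lists are to be read against these shares. The count depended on single libraries. It was 44 of 15513 genes (0.284%) without wt line 1, 36 of them lower in het, where 9.22% had an unadjusted p under 0.05, and 300 without wt line 2. It was 0 without wt line 3 or het line 3, and 1 without het line 1 or het line 2. Other tests on the 6 libraries gave 82 genes (DESeq2), 48 (edgeR exact test), 51 (edgeR likelihood ratio test) and 0 (limma voom).

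**Figure D2:**
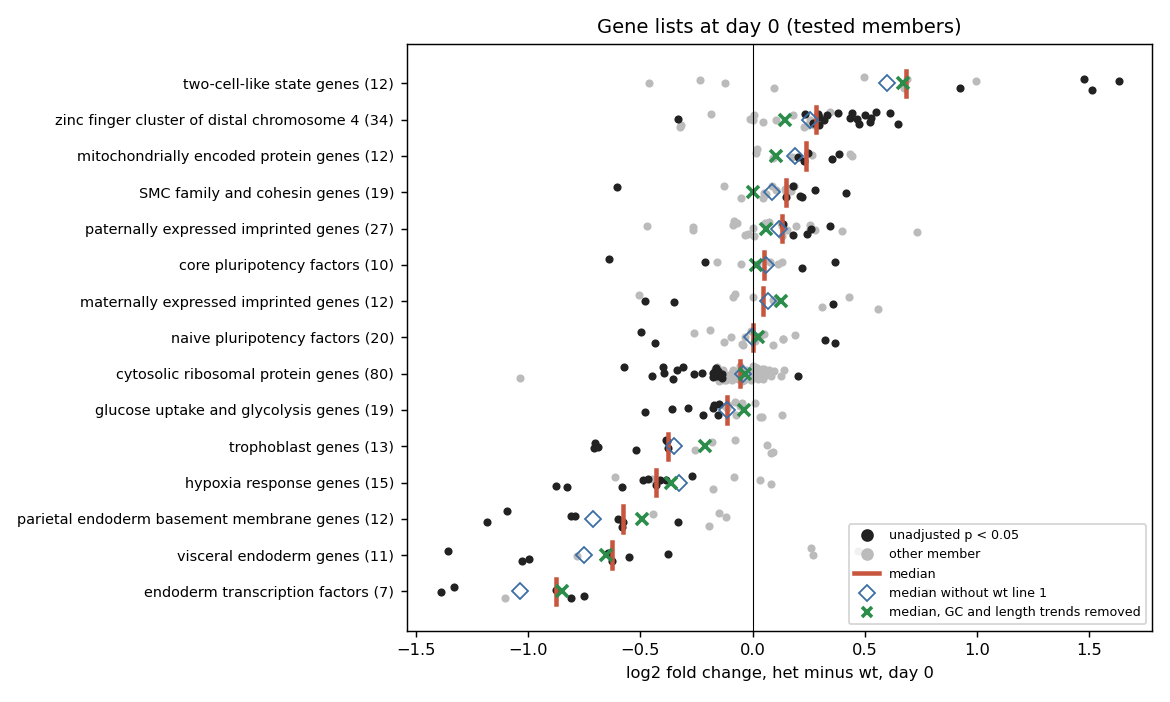
Each point is a tested gene of a list, placed by its log2 fold change of het over wt at day 0, and in black where its unadjusted p was under 0.05, with a bar at the list's median, a diamond at the median without wt line 1 and a cross at the median with GC and length trends removed. The 3 endoderm lists lie to the left with medians of -0.87, -0.58 and -0.63, and the zinc finger cluster lies to the right with a median of 0.28. The 2-cell-like genes have a median of 0.68, which supports no direction because members passed the filter through their het lines.

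Most genes of the extraembryonic endoderm had a lower level in het. The 3 lists, of endoderm transcription factors, basement membrane genes of parietal endoderm and visceral endoderm genes, held 34 genes. Of these, 30 were tested, 26 had a lower level in het and 4 a higher one, and the median log2 fold change was -0.64 against -0.00178 over all genes. In 15 of the 30 every het line was below every wt line, and in 0 above, against 7.93% and 8.62% of all genes. An unadjusted p under 0.05 was found for 20 lower and 0 higher genes, against 6.19% and 5.14% of all genes. Without wt line 1, 16 of the 30 fell past the adjusted threshold, which was 16 of the 44 genes called. The medians of the 3 lists, in the order above, were -1.04, -0.71 and -0.75 without that line, but -0.56, -0.34 and -0.39 without wt line 3, and that of the visceral list was -0.40 without het line 1. Fewer endoderm cells and less RNA per cell cannot be told apart in these bulk libraries.

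Of the 8 endoderm transcription factors, 7 were tested. Gata4, a zinc finger factor at the top of the primitive endoderm programme, was at 26.2, 22.5 and 38.7 CPM in the wt lines and 11.1, 17.6 and 21.3 in het. The groups did not overlap, and the difference in log2 CPM was -0.81 ± 0.23 (SE, adjusted p = 0.29). Its partner Gata6 was at 10.5, 14.6 and 19.9 CPM in wt and 6.48, 8.81 and 11.6 in het, with overlap between het line 3 and wt line 1, and its log2 fold change was -0.75 ± 0.25.

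The SOX factors of the lineage gave larger ratios. Sox7 was at 16.0, 20.02 and 27.1 CPM in wt and 11.1, 10.6 and 12.4 in het, which was -0.87 ± 0.20 in log2 fold change (SE, adjusted p = 0.29). Sox17, needed for endoderm formation, was at 7.06, 7.99 and 13.0 CPM in wt and 2.07, 4.82 and 4.29 in het, a value of -1.33 ± 0.33. In both genes every het line lay below every wt line. Without wt line 1, Sox7, Sox17 and Gata6 fell, with log2 fold changes of -1.04, -1.49 and -0.95 and adjusted p of 0.00302, 0.0167 and 0.0455, while Gata4 did not pass (adjusted p = 0.084). Foxa2 and Hnf4a were at or below 4.33 CPM and overlapped, with log2 fold changes of -1.10 ± 0.57 and 0.78 ± 0.98 (0.19 for Hnf4a without wt line 1), and Foxa1 had at most 8 counts and was not tested.

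Basement membrane genes were the most abundant of the endoderm genes. Parietal endoderm secretes the thick Reichert's membrane, built of laminin 111 and type IV collagen. All 12 listed genes were tested, and all 12 had a lower level in het (median log2 fold change -0.58). Col4a1, which encodes the alpha 1 chain of type IV collagen, was at 534, 418 and 834 CPM in wt and 204, 331 and 303 in het. Col4a2, its alpha 2 partner chain, was at 296, 199 and 402 CPM in wt and 98.4, 159 and 138 in het. In both genes wt line 3 was the highest library and het line 1 the lowest, and the genotypes did not overlap. The log2 fold changes were -1.09 ± 0.21 for Col4a1 and -1.18 ± 0.20 for Col4a2 (SE, adjusted p = 0.21 and 0.19), and without wt line 1 they fell, at -1.17 and -1.19, with an adjusted p of 0.00228 for each.

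The collagen genes start beside each other and run in opposite directions, and their annotated starts overlap, so that no base lies upstream of both. The RefSeq promoter windows of Col4a1 and Col4a2, which reach from 250 bases before the start to 50 bases after it, overlap over 78 bases at chr8:11312777-11312854 (GRCm38.p6, plus strand), shown because the pair moved together.
Col4a1 and Col4a2, shared: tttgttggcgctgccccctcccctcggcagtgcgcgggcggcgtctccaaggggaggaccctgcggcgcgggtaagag
Chromosome 8 was the chromosome raised in wt line 1, and the values of both genes without that line are given above. The letters AGATAA, bound by GATA factors, were searched on both strands and found in 3 of the 33 windows of the endoderm lists (9.09%), against 11.2% of all promoter windows. They were not among these 78 bases.

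The other chains of the membrane and the collagen chaperone had smaller log2 fold changes. Serpinh1, a chaperone of collagen folding, was at 234, 205 and 308 CPM in wt and 144, 172 and 176 in het, which was -0.60 ± 0.13 (SE, adjusted p = 0.27). The 3 chains of laminin 111, named after their values were seen, were lower without overlap. Lama1 was at 401, 475 and 836 CPM in wt and 246, 379.9 and 364.5 in het (log2 fold change -0.79), and Lamb1 and Lamc1 had log2 fold changes of -0.58 and -0.58. Sparc, a collagen-binding matrix protein, was at 389, 478 and 581 CPM in wt and 340, 432 and 379 in het, so the genotypes overlapped (log2 fold change -0.33). The summed level of the list was 3269, 3247 and 5032 CPM in wt and 2108, 2744 and 2621 in het, which shows wt line 3 as the highest library by a margin and no overlap of the genotypes.

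In the visceral endoderm list, 11 of 14 genes were tested. Ttr, Apoa1 and Afp, abundant products of mature visceral endoderm, were not, and Ttr had 0 counts in all 6 libraries while Afp had 0 in wt and at most 2 in het. Of the 11, 8 had a lower level in het and 3 a higher one, the 3 being Trf, Apob and Rbp4 at 0.26, 0.27 and 0.47, named after their values were seen. Cubn, the cubilin receptor, was at 170, 173 and 229 CPM in wt and 58.5, 111 and 112 in het, which was -1.03 ± 0.19 in log2 fold change (SE, adjusted p = 0.19). Lrp2, the megalin receptor that works with cubilin, was at 214, 236 and 298 CPM in wt and 126, 171 and 188 in het, which was -0.63 ± 0.14 (adjusted p = 0.29). Both receptors were without overlap, and without wt line 1 they fell, at -1.11 and -0.73 (adjusted p = 0.00228 and 0.0025). Apoe, an apolipoprotein also made by other cells, was lower by -0.38 in het with all libraries and by -0.26 without wt line 1, where it did not pass (adjusted p = 0.121), and it was at -0.14 with the trends removed.

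**Figure D3:**
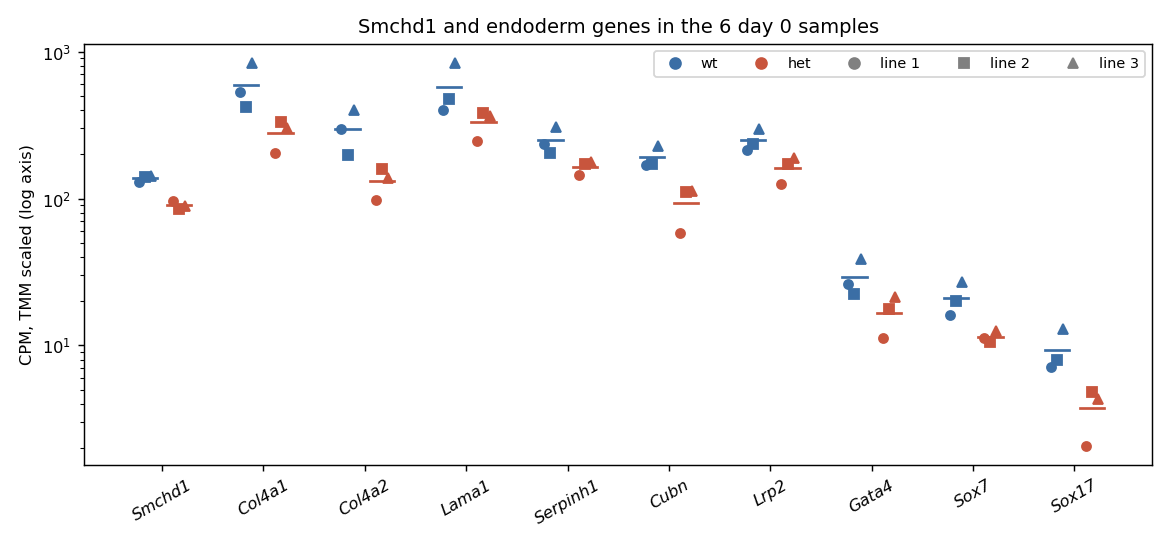
Points are the TMM-scaled CPM of endoderm genes in each day 0 library on a log axis, Smchd1 first, with wt and het lines side by side and a bar at the group mean. For Col4a1 the wt lines lie between 418 and 834 CPM and the het lines between 204 and 331, and wt line 3 is the highest library for each gene shown.

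Most genes of the zinc finger cluster on distal chromosome 4 had a higher level in het. This region holds a young, rodent-specific family of KRAB zinc finger genes, of the class whose proteins recruit TRIM28 to silence repeats. The list took in every gene of the region, 42 in all, of which 34 were tested and 4 had no count in any library. Among the 34, 29 had a higher and 5 a lower level in het, and the median log2 fold change was 0.28. The het lines lay above the wt lines for 14 and below for 0, against 8.62% and 7.93% of all genes. An unadjusted p under 0.05 was found for 18 higher genes and 1 lower, 2510039O18Rik, against 5.14% and 6.19% of all genes. With the GC and length trends removed the median was 0.14, and these counts were 8 and 0, against 8.04% of all genes in either direction. Zfp979, for one, had 34.6% exonic GC, and the lowest GC quintile, which reached 43.9%, had a median of 0.14 over all its genes. In that quintile 16.3% of genes were higher and 1.13% lower at an unadjusted p under 0.05.

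Genes with a Zfp symbol and the others of the region are given apart. All 18 Zfp genes were tested, and all 18 had a fitted log2 fold change above 0, although that of Zfp993 was 0.0030 and lay below 0 with the trends removed, when 17 of the 18 were higher. Their median was 0.35, and 14 had an unadjusted p under 0.05. Of the 16 other genes tested in the region 11 had a higher and 5 a lower level, with a median of 0.14 and with 4 higher and 1 lower at that p. The difference between the sets was not tested. Zfp979 was at 216, 240 and 208 CPM in wt and 349, 284 and 383 in het, which was 0.61 ± 0.10 in log2 fold change (SE, adjusted p = 0.18). It was the highest-ranked gene after Smchd1, and het line 2 was the lowest of the het lines. With the trends removed its log2 fold change was 0.38, and without wt line 1 it rose by 0.59 (adjusted p = 0.00253).

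The other leading members had the same order of het lines. Zfp990 was at 173, 201 and 198 CPM in wt and 273, 239 and 325 in het, which was 0.55 ± 0.10 (SE, adjusted p = 0.21). Zfp988 was at 154, 182 and 152 CPM in wt and 224, 196 and 253 in het, which was 0.46 ± 0.10 (adjusted p = 0.28). Zfp985 was at 215, 230 and 206 CPM in wt and 279, 240 and 329 in het, which was 0.38 ± 0.10 (adjusted p = 0.29). For each gene het line 3 was the highest and het line 2 the lowest het library. Without wt line 1, Zfp990 and Zfp988 rose by 0.48 and 0.42 (adjusted p = 0.0125 and 0.0455) and Zfp985 did not pass (adjusted p = 0.0936). Removal of the trends left Zfp990 at 0.33, Zfp988 at 0.25 and Zfp985 at 0.17. The copies share sequence. Of the 75-base stretches of a gene's annotated transcripts, 76.4% of Zfp979, 88.4% of Zfp990, 43.9% of Zfp988 and 95.6% of Zfp985 occur in no other gene. The split of reads between copies is therefore uncertain. Summed over the list, which does not depend on that split within the cluster, the level was 1871, 2047 and 1904 CPM in wt and 2507, 2247 and 2812 in het, without overlap.

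The promoter windows of 3 genes of the family are shown because these genes lay near the top of the ranking and hold the same run of 21 bases, in capitals. They are RefSeq windows of GRCm38.p6, at chr4:147642459-147642758 on the minus strand for Zfp979, chr4:147305354-147305653 on the plus strand for Zfp988 and chr4:147553027-147553326 on the plus strand for Zfp985.
Zfp979: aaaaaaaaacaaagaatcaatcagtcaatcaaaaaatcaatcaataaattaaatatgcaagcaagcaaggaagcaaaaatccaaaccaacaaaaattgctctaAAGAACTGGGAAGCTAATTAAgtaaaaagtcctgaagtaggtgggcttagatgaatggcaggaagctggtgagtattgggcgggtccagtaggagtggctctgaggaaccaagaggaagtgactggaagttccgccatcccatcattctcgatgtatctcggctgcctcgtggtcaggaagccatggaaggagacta
Zfp988: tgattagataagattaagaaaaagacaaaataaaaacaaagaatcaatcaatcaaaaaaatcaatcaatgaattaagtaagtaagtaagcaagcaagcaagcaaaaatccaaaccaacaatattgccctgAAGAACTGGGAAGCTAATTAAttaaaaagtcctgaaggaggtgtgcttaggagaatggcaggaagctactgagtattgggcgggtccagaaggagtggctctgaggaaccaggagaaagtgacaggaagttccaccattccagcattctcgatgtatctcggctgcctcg
Zfp985: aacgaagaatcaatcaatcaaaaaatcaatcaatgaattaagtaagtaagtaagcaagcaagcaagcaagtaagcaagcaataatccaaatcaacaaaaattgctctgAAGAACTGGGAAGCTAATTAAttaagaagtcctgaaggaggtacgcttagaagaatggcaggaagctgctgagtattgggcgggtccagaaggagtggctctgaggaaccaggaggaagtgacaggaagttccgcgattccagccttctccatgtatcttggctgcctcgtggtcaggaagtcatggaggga
The aligned windows were identical at 75.9% (Zfp979 and Zfp988), 83.9% (Zfp979 and Zfp985) and 76.5% (Zfp988 and Zfp985) of positions. The run AAGAACTGGGAAGCTAATTAA, searched on both strands, occurred in 9 of 32851 promoter windows (0.0274%), and all 9 belonged to genes of this cluster. These were Rex2, Zfp534, Zfp600, Zfp979, Zfp980, Zfp982, Zfp985, Zfp987 and Zfp988, and their log2 fold changes ranged from 0.26 to 0.61. The 9 made up 27.3% of the 33 windows of the cluster. Zfp990, which ranked above Zfp988 and Zfp985, was not among them. The match is a description of the sequence, and whether any factor binds there was not tested.

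**Figure D4:**
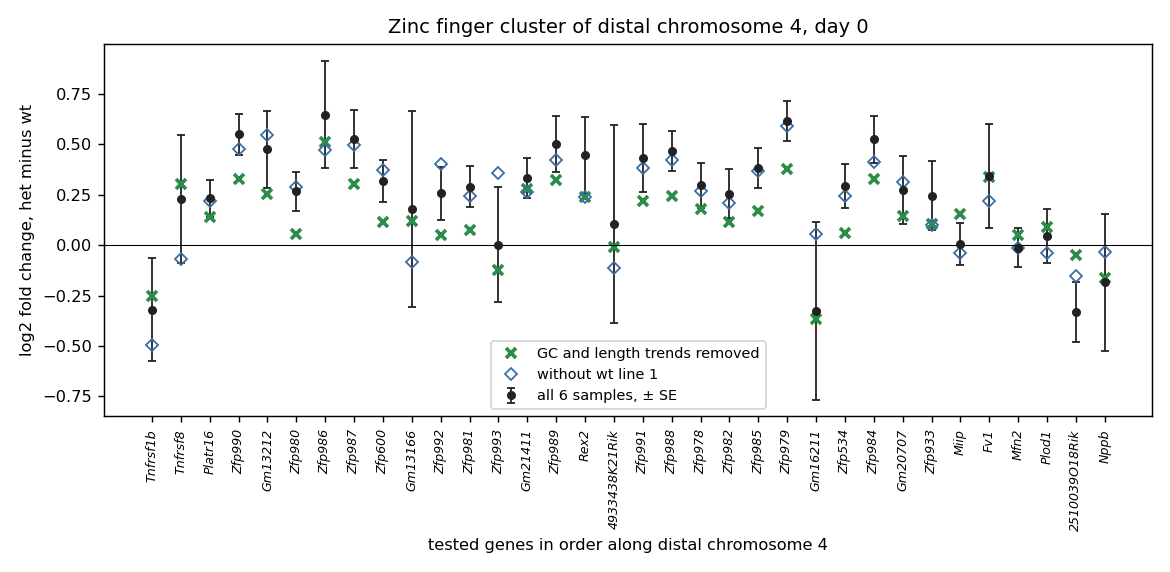
Genes of the distal chromosome 4 region are plotted in order along the chromosome by their log2 fold change of het over wt at day 0, with bars for the SE, diamonds for the value without wt line 1 and crosses for that with GC and length trends removed. Genes with a Zfp symbol have a median of 0.35 and the other genes one of 0.14, and all but 5 of the 34 lie above 0.

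Genes of the 2-cell-like state, expressed in the cleavage-stage embryo and in rare ES cells, were near the floor. Of 20 listed genes 12 were tested, of which 9 had a higher and 3 a lower level in het, with Zfp352 lowest at -0.46 ± 0.56 (SE). The median log2 fold change was 0.68, and 4 were higher and 0 lower at an unadjusted p under 0.05, or 2 and 0 with the trends removed. The median was 0.40 without het line 1. The filter asked for a minimum level in 3 libraries, and members such as Zscan4c (0.491, 0.394 and 0.138 CPM in wt and 0.955, 0.663 and 1.43 in het) passed it through their het lines, so these counts and the median are a description and support no direction. Zscan4d, which acts in telomere maintenance in such cells, was at 3.13, 1.52 and 1.58 CPM in wt and 3.08, 3.02 and 5.91 in het. The range overlapped because wt line 1 matched the lower het lines, and the log2 fold change was 0.92 ± 0.41 (SE, adjusted p = 0.42). Tcstv1 was at 0.798, 0.225 and 0.344 CPM in wt and 1.65, 0.905 and 1.68 in het, which was 1.63 ± 0.62 (adjusted p = 0.37). Only 60.5% of the 75-base stretches of Zscan4d occur in no other gene. Tcstv3 did not overlap either, with a log2 fold change of 1.47 ± 0.59. The summed level of the list was 17.8, 11.1 and 10.3 CPM in wt and 18.6, 13.9 and 25.5 in het, with overlap.

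Of 14 trophoblast genes 13 were tested, and 10 had a lower level in het (median log2 fold change -0.38). The het lines lay below for 7 and above for 0, against 7.93% and 8.62% of all genes. The 7 were the keratin genes of the list, Hand1, a factor of trophoblast giant cells, and the placental genes Esx1 and Plac1, the last 3 named after their values were seen. Krt8, a simple epithelial keratin, was at 126, 111 and 125 CPM in wt and 92.1, 94.6 and 90.4 in het, which was -0.38 ± 0.08 (SE, adjusted p = 0.29). Its partner Krt18 and the related Krt19 were without overlap at -0.38 ± 0.11 and -0.52 ± 0.13. Elf5 and Gata3, which specify trophoblast, were between 0.796 and 2.23 CPM in every library and overlapped. With the trends removed the median of the list was -0.21, with Krt8 at -0.21, Krt18 at -0.21 and Krt19 at -0.34. Keratins of this type are also expressed in endoderm.

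Hypoxia response and glycolysis genes share HIF1 as a regulator, and most had a lower level in het. All 15 hypoxia genes were tested, 13 had a lower level, and the median log2 fold change was -0.43. At an unadjusted p under 0.05, 9 were lower and 0 higher, against 6.19% and 5.14% of all genes. P4ha2, a prolyl hydroxylase that modifies collagen, was at 41.1, 39.9 and 58.1 CPM in wt and 19.9, 25.0 and 33.7 in het, which was -0.83 ± 0.18 (SE, adjusted p = 0.29). Vegfa, the vascular growth factor, was at 31.3, 32.1 and 36.7 CPM in wt and 24.6, 24.6 and 24.8 in het, a log2 fold change of -0.43 ± 0.12. Ndrg1 and Ddit4, stress response genes, were at -0.49 and -0.41 without overlap, while Bnip3, a mitophagy gene, overlapped at -0.18. Ddit4 and Bnip3 were at -0.26 and -0.27 without wt line 1 and at -0.20 and -0.29 with the trends removed. The hypoxia median was -0.36 with the trends removed and -0.33 without wt line 1.

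Among 19 glycolysis genes the median log2 fold change was only -0.11, with 15 at a lower and 4 at a higher level. At an unadjusted p under 0.05, 8 were lower and 0 higher, against 6.19% and 5.14% of all genes. With the trends removed these counts were 5 and 0. Pfkl, the liver-type phosphofructokinase, was at 496, 417 and 452 CPM in wt and 390, 343 and 331 in het, which was -0.36 ± 0.08 (SE, adjusted p = 0.29). Slc16a3, a lactate exporter, was at 279, 205 and 220 CPM in wt and 189, 150 and 165 in het, which was -0.48 ± 0.11. Both were without overlap, and Ldha, lactate dehydrogenase, overlapped at -0.11. With the trends removed the list median was -0.04 and Pfkl was at -0.21.

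Genes of protein synthesis and respiration had small differences. Of 80 cytosolic ribosomal protein genes, 18 were lower and 1 higher at an unadjusted p under 0.05. The shares of all genes were 6.19% and 5.14%. The median log2 fold change of the list was -0.06, or -0.098 without wt line 3 and -0.032 without het line 1. With the trends removed 11 were lower and 8 higher (median -0.036). Of 13 protein genes encoded in mitochondrial DNA, 12 were tested and all 12 had a higher level in het. Their median was 0.24 and became 0.15 without het line 3 and 0.10 with the trends removed. Only 2 of the 12 were without overlap. The summed level of the list was 6351, 7572 and 6765 CPM in wt and 7368, 8265 and 8800 in het, with overlap. mt-Nd4, a subunit of complex I, was at 503, 568 and 495 CPM in wt and 628, 669 and 703 in het, which was 0.35 ± 0.07 (SE, adjusted p = 0.27) and 0.17 with the trends removed. Only 38.5% of its 75-base stretches occur in no other gene.

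Of the gene families that SMCHD1 is known to silence, the imprinted genes and protocadherins had small median shifts, and few Hox genes could be tested. Of 31 paternally expressed imprinted genes 27 were tested, with a median log2 fold change of 0.13. At an unadjusted p under 0.05, 5 were higher and 0 lower (3 and 0 with the trends removed). The het lines lay above the wt lines for 8 of the 27 and below for 0, against 8.62% and 7.93% of all genes. Zdbf2, an imprinted gene of chromosome 1, was at 125, 168 and 164 CPM in wt and 191, 180 and 209 in het, which was 0.35 ± 0.10 (SE, adjusted p = 0.31). Sfmbt2 and Slc38a4 were at 0.26 and 0.24 without overlap, and Peg10 and Snurf overlapped at 0.05 and -0.07. The list median was 0.072 without het line 3. With the trends removed it was 0.06, Zdbf2 was at 0.21 and Slc38a4 at 0.14. Without wt line 1 Zdbf2 and Sfmbt2 were at 0.22 and 0.17.

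Of 17 maternally expressed imprinted genes 12 were tested, and their median log2 fold change was 0.05, or 0.13 with the trends removed. It was -0.011 without wt line 2, 0.0031 without het line 1 and 0.018 without het line 3, so it had no stable direction. Cdkn1c, an inhibitor of cyclin-dependent kinases, was at 65.0, 64.2 and 61.2 CPM in wt and 47.5, 41.6 and 47.6 in het, which was -0.48 ± 0.10 (SE, adjusted p = 0.27). Phlda2, its neighbour in the same imprinted domain, was at -0.35 without overlap. Ube3a, a ubiquitin ligase, was higher at 0.36 ± 0.09, and H19 overlapped at -0.09. Without wt line 1 Cdkn1c fell by 0.46 (adjusted p = 0.0438), while with the trends removed it was at -0.25, Phlda2 at -0.17 and Ube3a at 0.13.

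Of 57 clustered protocadherins 21 were tested and 11 had no count in any library. All 21 lay between 0.02 and 0.09 in log2 fold change with 0 at an unadjusted p under 0.05. The exons that the gamma genes share enter the count of each, so the 21 are not separate measurements. Of 39 Hox genes 3 were tested and 13 had no count in any library. The 3 ranged from -1.28 to 0.74 in log2 fold change, with 1 lower and 0 higher at an unadjusted p under 0.05. Hoxd13 and Hoxc13 were below 2 CPM in every library.

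Among 19 SMC family and cohesin genes 6 were higher and 1 lower at an unadjusted p under 0.05, the lower one being Smchd1. The shares of all genes were 5.14% and 6.19%. With the trends removed 1 was higher and 2 were lower. Nipbl, the cohesin loader, was at 135, 142 and 154 CPM in wt and 173, 167 and 182 in het, which was 0.28 ± 0.08 (SE, adjusted p = 0.29). The condensin subunits Smc2 and Smc4 were at 0.21 and 0.15 without overlap, and the cohesin subunit Rad21 overlapped at 0.10. The list median was 0.15, but 0.088 without wt line 1, and 0.0020 with the trends removed, when Nipbl was at 0.15, Smc2 at 0.057, Smc4 at 0.0020 and Rad21 at 0.011. Rad21 was at 0.050 without wt line 1.

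Pluripotency factors were evenly split. Of 20 naive factors, 10 had a higher and 10 a lower level in het, and the median log2 fold change was 0.00037, or 0.026 with the trends removed. Tfcp2l1, a naive transcription factor, was at 98.7, 121 and 133 CPM in wt and 137, 172 and 147 in het, which was 0.37 ± 0.11 (SE, adjusted p = 0.31), and Pecam1 was at 0.32 ± 0.09. Gbx2 was lower at -0.50 ± 0.19 and rested partly on wt line 1, which had 36.0 CPM against 17.7 to 22.9 in the others, and without it the value was -0.21. The 10 core factors had a median of 0.05, or 0.015 with the trends removed. Zfp281, a repressor of Nanog, was at 189, 216 and 196 CPM in wt and 259, 246 and 272 in het, which was 0.37 ± 0.08 (adjusted p = 0.27), and Rif1 was at 0.22. Utf1, a chromatin factor of ES cells, was at 388, 174 and 200 CPM in wt and 171, 174 and 143 in het, so that its log2 fold change of -0.64 became -0.20 without wt line 1. Pou5f1 was at -0.21 with all libraries and -0.14 without that line. Removal of the trends left Gbx2 at -0.26, Utf1 at -0.22, Rif1 at 0.050 and Pou5f1 at -0.029, and Rif1 was at 0.12 without wt line 1.

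Outside the lists, several genes ranked near the top. Ankrd33b, an ankyrin repeat gene, was at 17.1, 18.8 and 21.1 CPM in wt and 8.60, 9.23 and 11.5 in het, which was -0.96 ± 0.17 (SE, adjusted p = 0.19). Wnt11, a secreted Wnt ligand, was at 7.25, 5.46 and 7.02 CPM in wt and 1.75, 1.09 and 2.61 in het, which was -1.85 ± 0.33 (adjusted p = 0.19). Neither overlapped, and without wt line 1 they fell, at -1.04 and -1.77 (adjusted p = 0.00348 and 0.0127). Galk1, galactokinase, was at -0.64 ± 0.13, with wt line 1 its highest library, at -0.44 without that line and at -0.32 with the trends removed. Among higher genes, Cnot4 was at 0.52 ± 0.10, Jam2 at 0.37 ± 0.08, Dzip3 at 0.48 ± 0.10, Zfp808 at 0.46 ± 0.10 and Fam199x at 0.68 ± 0.14, each without overlap and with an adjusted p of 0.27. With the trends removed Cnot4 was at 0.31, Dzip3 at 0.27 and Zfp808 at 0.25. By fold, Neb and Kcnh7 were higher by 1.36 and 1.27 on the log2 scale at levels under 6 CPM. Ier5l and Scand1 were at -1.75 and -1.72, and Ier5l rested on wt line 1, which had 13.8 CPM against 1.57 to 3.23 in the others and without which it was at -0.63.

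Of the 46 lists, the Hox genes, the protocadherins and all lists not described above, 31 in all, held 416 tested genes. At an unadjusted p under 0.05, 22 of the 416 were higher and 37 lower, against 5.14% and 6.19% of all genes. The immediate early genes had 4 lower and 0 higher, with Atf3, a stress-induced factor, at -0.74 ± 0.24 (SE), but 1 was lower without wt line 1 and 1 with the trends removed. The genes of the ATF4 response had 5 lower and 0 higher, with Trib3 at -0.37 ± 0.11 and at -0.17 with the trends removed, when 3 of the list were lower. The neural, mesoderm, Rhox, interferon and fibroblast lists had 0 in either direction. Among the 25 of these lists with 10 or more genes tested, the medians ranged from -0.71 in the histone cluster genes to 0.26 in the fibroblast genes, and the histone median was -0.26 without wt line 1.

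The later days of the same lines were used to see whether the day 0 differences recurred. Each line was sampled repeatedly, so these are not new lines. At day 2, 118 of 15414 genes (0.766%) passed an adjusted p of 0.05, 103 lower in het (0.668%) and 15 higher (0.0973%). Of the 30 endoderm genes 19 fell and 0 rose. Col4a1 and Col4a2 fell, with log2 fold changes of -1.03 and -1.05 (adjusted p = 0.00473 for each), as did Sox7 at -1.52 and Gata4 at -1.06. At day 2 the medians of the 3 endoderm lists were -1.14, -0.98 and -0.99, at day 2.5 they were -0.45, -0.35 and -0.52, and at day 3 they were -0.75, -0.52 and -0.75, in the order transcription factors, basement membrane and visceral endoderm. At day 2.5, 0 of 15588 genes (0%) passed, with 906 (5.81%) at an unadjusted p under 0.05, and at day 3 only Smchd1 did (0.00638%), with 9.17% at an unadjusted p under 0.05. Smchd1 was lower at day 2 by -0.75, at day 2.5 by -0.60 and at day 3 by -0.88, with adjusted p of 0.00398, 0.839 and 0.0241.

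In the zinc finger cluster, 7 of the 18 Zfp genes rose at day 2, among them Zfp979 by 0.91 (adjusted p = 0.0112) and Zfp988 by 0.68 (adjusted p = 0.00567). The medians of the list were 0.41 at day 2 (34 genes tested), 0.26 at day 2.5 and 0.18 at day 3 (33 each). The hypoxia list had medians of -0.16, -0.10 and -0.06, nearer 0 than the -0.43 of day 0. Some other lists changed sign between days. At days 2, 2.5 and 3 the trophoblast medians were -0.29, 0.08 and 0.11, and those of glycolysis 0.096, -0.097 and 0.044. The mitochondrial medians were 0.19, 0.29 and -0.04, and those of the SMC list 0.05, 0.06 and -0.05.

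**Figure D5:**
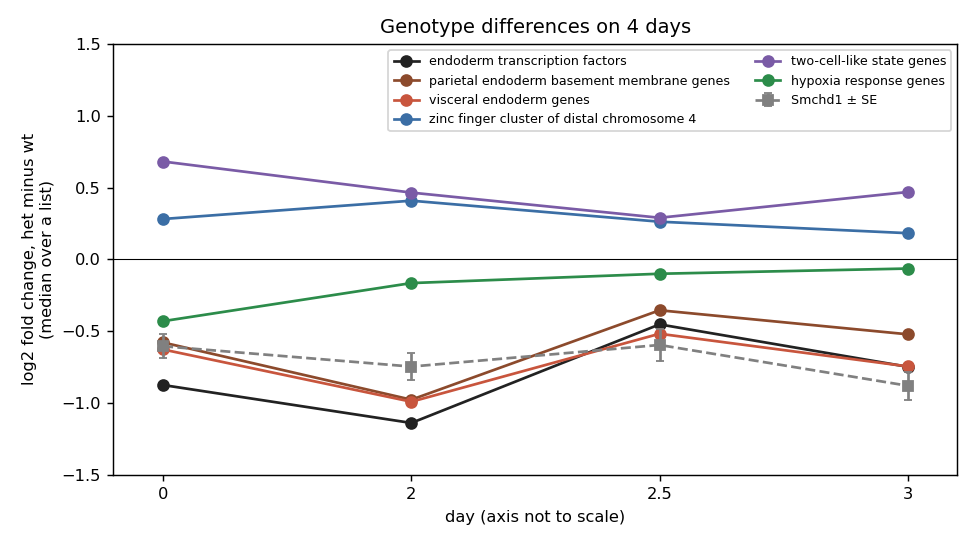
Points are the median log2 fold changes of het over wt for gene lists on each of the 4 days, whose axis is not to scale, and squares those of Smchd1 with bars for the SE. The endoderm lists are below 0 on all 4 days and lowest at day 2, and the zinc finger cluster is above 0 on all 4. The hypoxia genes go from -0.43 at day 0 to -0.06 at day 3. The 2-cell-like genes, of which only 4 were tested at day 2, are near the floor. At day 0 members passed the filter through their het lines, so this curve supports no direction.

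Whether a day 0 difference was itself distinct from that of a later day was tested by the interaction of genotype and day. Between day 0 and day 2, 0 of 16387 genes passed (0%), with 1024 (6.25%) at an unadjusted p under 0.05, and between day 0 and day 3, 0 of 16549 passed (0%), with 1362 (8.23%). With the line as a block, which the labels support because a line keeps its number over the days, 2 genes passed for day 2 and 12 for day 3. DESeq2 called 10 and 19. The 2 genes of day 2, Tfpi and Ahnak, named after their values were seen, had a day 0 minus day 2 difference of 0.72 and 0.90 in log2 fold change (adjusted p = 0.0292). Of the 12 genes of day 3, Lefty2, an inhibitor of Nodal, had a difference of -1.46 and Cldn4, a claudin, one of -0.997 (adjusted p = 0.0119 for each), and these too were chosen after their values were seen. Among the 30 endoderm genes the smallest adjusted p of the interaction without the block was 0.751 for day 2 and 0.594 for day 3, and a p of this size does not show that the days were alike.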

How the data were processed

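RNA was measured in 24 libraries by poly(A) sequencing with 75-base single-end reads, and the 6 of day 0 are described, with later days for comparison. The authors trimmed reads with Trim Galore 0.4.4, aligned them with HISAT2 2.0.5 to GRCm38.p6 and quantified genes in SeqMonk. The deposited raw counts per gene, 35591 genes, were used as they stood. The authors also deposited log2 RPKM tables of Hox genes and of differentiation factors, which entered no test here, and 8 columns of group mean signal, which were not used. Whether a library was stranded is not stated per library, so reads of genes that overlap on opposite strands may not be separated.

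The analysis used edgeR 4.0.16 in R 4.3.3, with TMM scaling, filterByExpr by group and the quasi-likelihood test with its newer (non-legacy) option. A gene was called where its Benjamini-Hochberg adjusted p was below 0.05. CPM are TMM-scaled, fold changes are het over wt, and SE is the log2 fold change divided by the square root of F. A library's floor was 3 counts, 0.159 to 0.208 CPM at day 0, and covers counting error only. GC and length trends were removed by a lowess offset (span 0.3). Promoters came from RefSeq (GRCm38.p6) and annotation from GENCODE vM21, in which 35545 identifiers were found. Named genes were Smchd1, the 10 higher and 10 lower with the smallest p among genes without overlap, the 5 higher and 5 lower by fold, and up to 5 per list. Some genes of the lists are not reported here. Other genes were chosen after their values were seen. The members and gene lists were chosen with earlier results of these data known. The fits were tested on simulated data. Alternatives were other scalings, filters and tests (DESeq2 1.42.0, limma 3.58.1), thinned counts, a replicate block, chromosome 8 left out and each library left out. Figures were drawn with matplotlib 3.10.9.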

Additional observations from a re-analysis of the deposited data

How the results depend on the processing

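The number of genes past the adjusted threshold at day 0 was 0 with all 6 libraries, and it was also 0 with DESeq2 size factors, library totals alone, a mean of at least 50 counts, limma voom, the legacy quasi-likelihood test and thinned counts. It was 10 with no filter, 82 with DESeq2 (adjusted p not given for 5273 genes), 48 with the edgeR exact test, 51 with the likelihood ratio test, and 1 each with robust hyperparameters, one fit of all 24 libraries, chromosome 8 left out, and GC and length trends removed. Leaving out one library gave 0 to 300, with 44 without wt line 1 and 300 without wt line 2. Of the alternatives chosen after seeing the data, the legacy test with no filter gave 369 and removing the trends without wt line 1 gave 32. The causes were not tested.

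Smchd1 kept its direction in every alternative. It passed the threshold with no filter (-0.60), DESeq2, the exact and likelihood ratio tests, the replicate block and chromosome 8 left out (-0.61 each), robust hyperparameters (-0.60), 24 libraries (-0.59), trends removed (-0.76), the legacy test with no filter (-0.60) and trends removed without wt line 1 (-0.76), and ranged from -0.66 to -0.57 over the libraries left out, with adjusted p from 0.000466 to 0.457. The replicate block gave 113 genes, but same-numbered wt and het lines correlated at 0.0346, -0.0468 and 0.0253 in their deviations and not every line correlated best with its own number, so the numbers do not pair these lines.

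Of 1670 values of 73 named genes over the alternatives, 1431 kept direction and side, 231 passed the threshold only in the alternative, and 8 reversed: Sox2 (0.084 without wt line 1 and 0.11 with trends also removed, lowest -0.15 without wt line 3), Snurf (0.023 without het line 1, lowest -0.16 without het line 2, and 0.021 with trends removed), Nanog (-0.018 without het line 2, highest 0.16 without wt line 2), Hnf4a (-0.26 without het line 3, highest 3.11 without wt line 3) and H19 (0.041 with trends removed and 0.032 without wt line 1 as well). List medians moved by more than the spread between lines in 14 of 345 values: maternally expressed imprinted genes -0.072 with no filter and -0.069 with the legacy test too, paternally expressed 0.072 without het line 3 (0.15 without wt line 3), 0.059 with trends removed and 0.090 without wt line 1 as well, and, with trends removed and then also without wt line 1, trophoblast -0.21 and -0.26, SMC genes 0.0020 and 0.022, and glycolysis -0.040 and -0.050. The zinc finger median was 0.14 with trends removed, and with both changes the mitochondrial median was 0.076 and the ribosomal one -0.0099. The interaction of day 0 with day 2 gave 40 genes with no filter, 10 with DESeq2, 2 with the line as a replicate block and 0 to 2 over the libraries left out (2 without wt line 2), and that with day 3 gave 2, 19, 12 and 0. The depth limits genes under about 1 CPM, such as most Hox and 2-cell-like genes.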
